A study of Arabidopsis thaliana with 12 samples.

Results

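The comparison set seedlings of Arabidopsis thaliana carrying the lba1 allele of UPF1 together with upf3-1 beside seedlings carrying upf3-1 alone, and so asked what lba1 adds where UPF3 is already disrupted. Its members were the 14079 genes, of 33602 loci in the deposited table, with a mean of at least 5 RPKM (reads of a gene divided by its length and by the depth) over 6 columns. All plants were of the accession Columbia, were harvested as whole seedlings at 11 days, and grew in continuous light on medium with 2% sucrose. Both groups compared were untreated. The other columns were untreated wild type, untreated lba1, wild type given a 4 h liquid incubation (mock) and wild type given the same incubation with cycloheximide at 10 µg/ml. Each group had 2 libraries, 12 in all, and each pair of libraries is represented by 1 pooled column.

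Nonsense-mediated decay (NMD) removes mRNAs in which translation stops too early or in an unfavourable setting. UPF1 is the RNA helicase at the centre of the pathway, and UPF3 is a partner that helps to recruit and activate it on such mRNAs. In Arabidopsis, strong loss of NMD is known to switch on immune signalling and to stunt seedlings, and many genes of splicing regulators make variants that NMD degrades. The lba1 allele is a point mutation that weakens UPF1 rather than removing it, and upf3-1 is a T-DNA insertion in UPF3. Whole seedlings were sampled, so a lower level of a transcript can mean fewer cells of a type or less RNA per cell, and these cannot be told apart.

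The depth of the columns compared, recovered from the steps between the low values of transfer RNA loci, came to 91.7 M reads for upf3-1 and 89.5 M for lba1 upf3-1. A gene of 1 kb at 5 RPKM then rested on 458 and 447 reads. The 95% counting interval of a log2 difference had a median half-width of 0.085 over the genes described and a 95th percentile of 0.18. It covers counting error only. With 1 column per group there is no replicate check, and no SD or p-value can be given. A gene is called higher or lower where log2(RPKM + 0.5) differed by at least 1, a 2-fold rule of size that is not a test. The scale understates the change of low genes.

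UPF3, the disrupted gene, was at 4.95 RPKM in upf3-1 and nearly the same in lba1 upf3-1 (4.82), while wild type had 13.1, lba1 22.2, mock 25.4 and cycloheximide 23.1. Both columns labelled upf3-1 were thus the lowest of the 6 and close to each other. The UPF1 gene, listed under the symbol LBA1, was at 24.6 RPKM in upf3-1 and likewise at 24.7 in lba1 upf3-1, and at 19.2 to 29.4 over all columns. A point mutation need not alter the level of its own transcript, so the UPF1 value does not check the lba1 label. Shoot markers of seedlings were present in both columns compared, and the flower and pollen markers AG, AP3, AMS and VGD1 lay between 0 and 0.233 RPKM in them. AT5G10130, annotated as a pollen Ole e 1 allergen type gene, had 1.77 RPKM in upf3-1 but only 0.25 in lba1 upf3-1.

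In lba1 upf3-1, the nuclear genes of photosynthesis were far below their level in upf3-1, as were genes of cell expansion and water channels. Genes of salicylic acid defence, small heat shock proteins, hypoxia, camalexin synthesis and seed storage stood above it. Ribosomal protein, ribosome biogenesis and proteasome genes had no member past 2-fold. Of the genes described, 2340 were higher by the 2-fold rule (16.6%) and 2945 lower (20.9%). At 4-fold these numbers were 806 (5.72%) and 1398 (9.93%). The excess of lower genes at 2-fold was also present without a filter on level (3808 of 33602 loci higher, 4471 lower), but not with every filter. With the filter on the mean of lba1 upf3-1 and upf3-1 alone, 2569 of 13637 genes were higher (18.8%) and 2584 lower (18.9%). The median difference of all genes described was 0.11, with quartiles at −0.73 and 0.68. A total of 483 genes lay just past the rule, at an absolute difference of 1 to 1.1, and 508 just short of it, at 0.9 to 1.

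**Figure D1:**
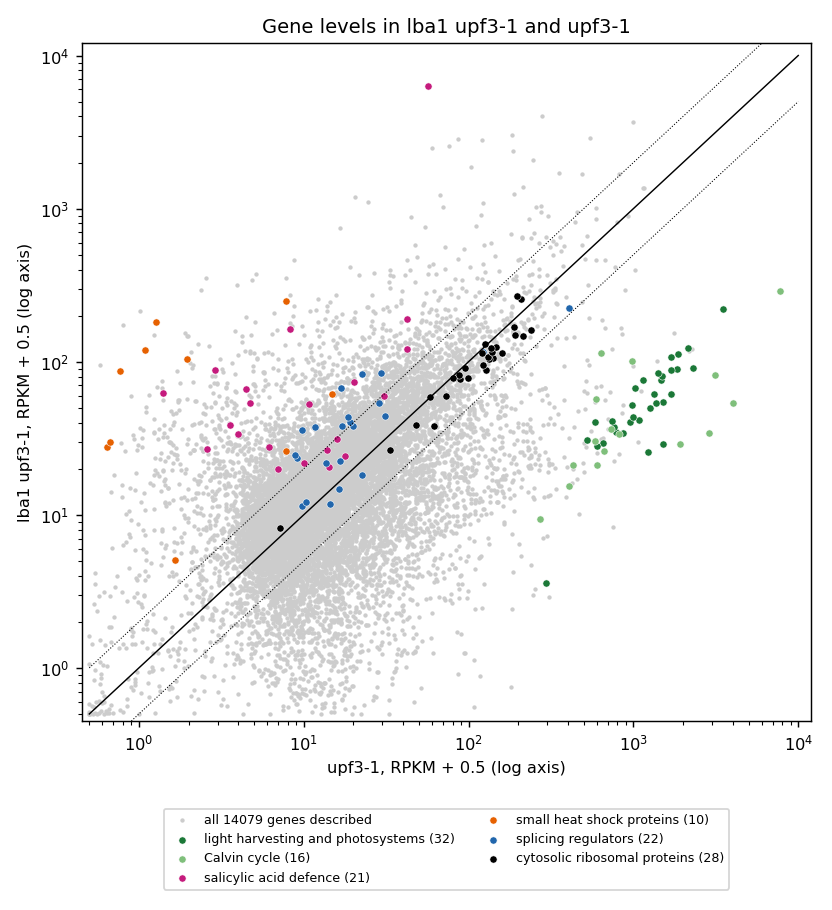
Level of each of the 14079 genes in upf3-1 (horizontal) and in lba1 upf3-1 (vertical), as RPKM + 0.5 on log axes; 1 point is 1 gene and 1 pooled column stands behind each axis. The solid line marks equal levels and the dotted lines 2-fold; the 32 light harvesting and photosystem genes and the 16 Calvin cycle genes all lie below the lower dotted line, and the 28 ribosomal protein genes lie between the dotted lines.

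The light harvesting and photosystem genes encode the antenna proteins that bind chlorophyll and the nuclear-encoded subunits of both photosystems. All 32 listed were described, and all 32 were lower by the 2-fold rule, against 20.9% of all genes. Their log2 differences ran from −6.36 to −3.86 with a median of −4.38. The least affected member, PSBO2 of the oxygen-evolving complex, was still at 39.8 RPKM in lba1 upf3-1 beside 586 in upf3-1. LHCB2.3, an antenna gene of photosystem II, was at 294 RPKM in upf3-1 but 3.08 in lba1 upf3-1. Wild type had 152 RPKM, lba1 424, mock 32.2 and cycloheximide 9.48, so lba1 upf3-1 was the lowest of the 6 columns. A share of 40.6% of its exon bases lies under another locus, and the library kit does not mark strand, so reads of the overlapping locus cannot be told apart.

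The antenna genes of photosystem I behaved alike. LHCA1 was at 25.3 RPKM in lba1 upf3-1 and 1231 in upf3-1 (log2 difference −5.58). Where a level is given beside another, the first is that of lba1 upf3-1 and the second that of upf3-1, and the log2 difference follows in brackets. LHCA4 was at 90.7 beside 2307 RPKM (−4.66). The near-identical antenna genes CAB1, CAB2 and CAB3, between which reads may be split, had differences of −3.99, −4.35 and −5.69. All of them lay far below their level in upf3-1.

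Calvin cycle genes encode the enzymes that fix carbon dioxide into sugar. All 16 were described and all 16 were lower, with a median of −4.69 and a range of −6.40 to −2.48. RBCS2B, a small subunit of Rubisco, was at 2880 RPKM in upf3-1 but 33.7 in lba1 upf3-1, while wild type had 4427, lba1 2288, mock 749 and cycloheximide 203. RBCS1A, the most abundant of the small subunit genes, was at 7799 RPKM in upf3-1 but 290 in lba1 upf3-1 (−4.75). The members of this family are near-identical, so the split among them is uncertain, but all 4 described lay past −4.7. RCA, the activase that keeps Rubisco working, was at 81.0 beside 3122 RPKM (−5.26). The smallest difference belonged to AT3G60750, a transketolase gene (113 beside 632 RPKM, −2.48).

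Among the other genes of leaf metabolism, CA1, the chloroplast carbonic anhydrase, was at 756 RPKM in upf3-1 but 7.78 in lba1 upf3-1 (−6.51, counting half-width 0.06). GLDP1, a subunit of glycine decarboxylase in photorespiration, was at 496 RPKM in upf3-1 but 21.4 in lba1 upf3-1. The 43 chloroplast-encoded genes described had 35 lower and 0 higher and a median of −2.00. Their values come from libraries that enrich polyadenylated RNA, which samples chloroplast transcripts poorly.

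**Figure D2:**
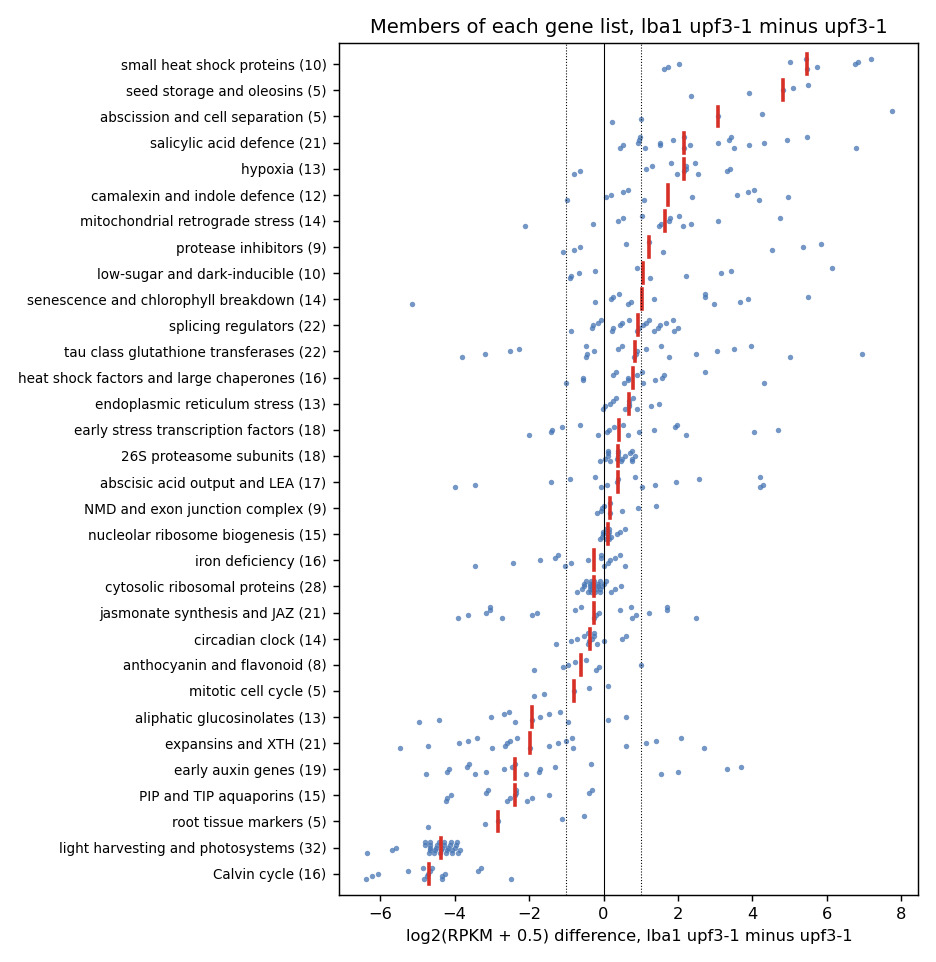
Log2(RPKM + 0.5) difference, lba1 upf3-1 minus upf3-1, for every described member of 32 gene lists (blue points, number of members in brackets), with the list median as a red bar and the lists ordered by it. Dotted lines mark 2-fold; medians run from −4.69 for the Calvin cycle to 5.46 for small heat shock proteins.

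Genes of auxin response and of cell expansion, through which seedlings enlarge their organs, were mostly lower. Of the 25 early auxin genes listed, 19 were described, of which 14 were lower and 4 higher (median −2.38). Over all 25 without a filter on level, 19 were lower and 5 higher. Of all genes, 16.6% were higher and 20.9% lower, so the share of higher members was near the background. The Aux/IAA repressors and the SAUR growth genes lay below upf3-1. The 4 higher members, BRU6, WES1, DFL1 and GH3.3, all belong to the GH3 family, whose enzymes attach amino acids to auxin.

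SAUR24, a small auxin-induced gene of cell elongation, was at 16.6 RPKM in upf3-1 but 0.124 in lba1 upf3-1 (−4.77). SAUR20 was at 8.80 RPKM in upf3-1 but 0.023 in lba1 upf3-1, where it rested on about 1.0 read. AT4G38840, another SAUR-type gene of the list, was at 2.12 beside 48.0 RPKM (−4.21). Of the repressors, IAA1 was at 0.684 beside 14.6 RPKM (−3.68). On the other side, WES1 was at 124 RPKM in lba1 upf3-1 and 11.9 in upf3-1 (3.33), and BRU6 at 28.3 beside 1.71 (3.70).

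Expansins loosen the cell wall, and XTH enzymes cut and rejoin its xyloglucan. Of 24 genes listed, 21 were described, with 14 lower and 4 higher and a median of −1.96. The share of higher members was near the 16.6% of all genes, while 20.9% of all genes were lower. Every expansin described was below its level in upf3-1, although EXPA9 (−0.82) and EXPA16 (−0.83) did not reach 2-fold, and the 4 higher genes were all XTH genes. EXPA8 was at 34.0 RPKM in upf3-1 but 0.282 in lba1 upf3-1 (−5.46). EXPA5 was at 0.216 beside 18.3 RPKM (−4.72). XTR6, an XTH gene, was at 144 beside 21.9 RPKM (2.69), and XTH10, which is not on the list, at 153 beside 1.4 (6.34).

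Aquaporins are the water channels of the plasma membrane (PIP) and of the vacuole (TIP). Of 19 listed, 15 were described, and 13 of these were lower and 0 higher. The median was −2.39. The tonoplast genes GAMMA-TIP (12.6 beside 246 RPKM, −4.23) and DELTA-TIP (8.50 beside 164, −4.19) were the lowest. PIP1;4 (−0.40) and RD28 (−0.31) stayed within 2-fold.

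Root markers were low as well. Only 5 of the 16 listed passed the filter, and 4 of these were lower. Without the filter, 12 of 16 were lower and 0 higher (median −1.35). PRP3, a root hair cell wall protein, was at 0.224 RPKM in lba1 upf3-1 and 18.4 in upf3-1, and CASP1, which builds the Casparian strip of the endodermis, at 0.793 beside 8.71. Whether the share of root tissue differed between the seedlings was not tested. For mitotic cell cycle genes, 5 of 19 were described and 2 were lower, SYP111 of the cell plate (−1.86) and CDC20.1 of the mitotic checkpoint (−1.59). Without the filter 10 of 19 were lower and 0 higher.

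Aliphatic glucosinolates are sulphur-rich compounds made from methionine that deter herbivores. Of 14 genes listed, 13 were described, with 10 lower and 0 higher and a median of −1.92. CYP79F1, the enzyme that commits chain-elongated methionine to the pathway, was at 39.1 RPKM in upf3-1 but 0.772 in lba1 upf3-1 (−4.96). MYB29, a transcription factor of the pathway, was at 0.178 beside 14.1 RPKM (−4.43). MYB28, which shares that role, was at 8.72 beside 34.3 (−1.92). TGG2, a myrosinase that releases the toxic products, was among the 12 lowest genes of all, at 2.76 beside 252 RPKM (−6.28).

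Salicylic acid is the hormone of defence against biotrophic pathogens, and its genes went the other way. Of 24 listed, 21 were described, and 16 of these were higher and 0 lower, against 16.6% and 20.9% of all genes. The median was 2.17. Without the filter 18 of 24 were higher and 0 lower. Every one of the 21 described was above its level in upf3-1, the smallest difference being that of the salicylic acid receptor NPR4 (0.45).

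PR1, the standard marker of the response, was at 56.4 RPKM in upf3-1 but 6294 in lba1 upf3-1, a difference of 6.79 with a counting half-width of 0.04. Wild type had 113 RPKM, lba1 0.922, mock 1.4 and cycloheximide 0.047. The lba1 upf3-1 column was thus the highest of the 6 by far, and lba1 alone the lowest of the 4 untreated ones. The signalling genes behind PR1 were higher too, though less so. EDS16, which makes the precursor of most salicylic acid, was at 19.4 beside 6.43 RPKM (1.52). PBS3, which conjugates that precursor, was at 65.9 beside 3.95 (3.90). SARD1, a transcription factor that activates both, was at 38.3 beside 3.09 (3.43). FMO1, of systemic acquired resistance, was at 87.4 beside 2.39 (4.93), and WRKY38 at 62.3 beside 0.906 (5.48). The upstream regulators EDS1 (0.93) and PAD4 (0.98) lay just short of 2-fold, with EDS1 at 25.9 RPKM in lba1 upf3-1 and 13.4 in upf3-1. EDS1 and PAD4 thus differed less than the genes of synthesis and response just named.

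Camalexin is the main antimicrobial indole compound of Arabidopsis. Of the 12 genes of camalexin and indole defence, all described, 7 were higher and 0 lower (median 1.73). Several of the highest were cytochrome P450 genes of the pathway. CYP71A12 was at 207 RPKM in lba1 upf3-1 and 6.12 in upf3-1 (4.97), PAD3, of the last step, at 128 beside 7.22 (4.05), and CYP79B2, of the first step, at 399 beside 33.0 (3.57). CYP71A13 was at 83.9 beside 5.24 (3.88). GSTF6, a glutathione transferase of the same list, was at 1866 beside 103 RPKM (4.17), second only to CYP71A12 in its difference. CYP79B3, the close homologue of CYP79B2, lay on the other side, at 12.2 beside 24.6 RPKM (−0.98), just short of the rule.

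Protease inhibitors of the leaf blunt insect digestion. Of 10 listed, 9 were described, with 5 higher and 1 lower. The differences ran from −1.09 to 5.85 with a median of 1.23, and TI2, at 20.9 beside 6.54 RPKM (1.60), lay in between. UPI reached 1182 RPKM beside 19.9 (5.85), KTI1 2488 beside 59.7 (5.37) and TI1 2803 beside 120 (4.54), whereas the cystatin gene CYSA was at 46.8 beside 100 (−1.09).

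Jasmonate is the hormone of wound and herbivore defence. Of its 22 genes listed, 21 were described, 4 being higher and 8 lower, around a median of −0.27. The share of higher members was near the 16.6% of all genes, and 20.9% of all genes were lower. The synthesis genes AOS, AOC1, AOC2 and LOX2 were lower, and AOC3 was higher. AOC2, an allene oxide cyclase, was at 21.0 RPKM in lba1 upf3-1 and 321 in upf3-1 (−3.90), and its family member AOC3 at 29.6 beside 8.72 (1.71). VSP1, a vegetative storage protein that marks the response, was at 5.04 beside 68.5 (−3.64). Of the JAZ repressors, JAZ8 was higher (7.28 beside 0.887 RPKM, 2.49) and TIFY7 lower (5.70 beside 51, −3.05).

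Plant defensins of the PDF1 family, which jasmonate and ethylene induce together, were at or near 0 in lba1 upf3-1. PDF1.2, PDF1.2c and PDF1.3 were at 0 RPKM there and at 21.8, 19.1 and 32.4 RPKM in upf3-1. With a floor of 3 reads in the lba1 upf3-1 column, they were at least 376-fold, 312-fold and 599.7-fold lower. PDF1.2b was at 0.098 beside 46.3 RPKM. The copies are near-identical, so their reads may be shared among them. LCR67, which the annotation also calls PDF1.1, went the other way, at 94.5 RPKM in lba1 upf3-1 and 0.083 in upf3-1. The latter rests on about 3.3 reads, and the ratio has a counting interval of 429.6 to 6096.

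Small heat shock proteins hold unfolded proteins in a state from which they can be rescued. Of 14 listed, 10 were described and all 10 were higher, with a median of 5.46. Without the filter all 14 were higher and the median was 4.24. HSP17.6II was at 0.267 RPKM in upf3-1 but 87.1 in lba1 upf3-1 (6.84), while wild type had 0.381, lba1 3.53, mock 23.4 and cycloheximide 4.87. HSP17.6A was at 119 beside 0.596 RPKM (6.77). HSP17.4 was at 182 beside 0.764 (7.17), and another locus covers 70.9% of its exon bases. The mitochondrial member HSP23.6-MITO was at 27.1 beside 0.138 (5.44). Genes for larger chaperones and the heat shock factors that control them had 7 of 16 described members higher and 1 lower, out of 21 listed, with a median of 0.79. HSFA2, the factor that prolongs the heat response, was at 49.9 beside 2.04 RPKM (4.31), the FKBP-type isomerase gene AT5G48570 at 38.4 beside 5.34 (2.74) and HSP101, the disaggregase of acquired heat tolerance, at 11.0 beside 6.73 (0.66). The large chaperones were thus far less different than the small ones.

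Genes of low oxygen supply were higher in most cases. Of 14 listed, 13 were described, and 11 of these were higher and 0 lower (median 2.16). ADH1, the alcohol dehydrogenase of fermentation, was at 272 RPKM in lba1 upf3-1 and 25.3 in upf3-1 (3.40). HB1, a haemoglobin that scavenges nitric oxide, was at 484 beside 48.2 (3.31), and the sucrose synthase gene SUS1 at 56.6 beside 9.85 (2.46). SUS4 (−0.79) and the transcription factor gene ERF73 (−0.63) lay below upf3-1 without reaching 2-fold.

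The mitochondrial retrograde list holds genes that answer impaired respiration. All 14 were described, with 10 higher and 1 lower (median 1.66). AOX1D, an alternative oxidase, was at 85.2 beside 2.72 RPKM (4.73), and AOX1A, the main form, at 233 beside 52.5 (2.14). AT2G21640, a marker of oxidative stress, was at 132 beside 15.4 (3.06). DIC2, a dicarboxylate carrier of the inner membrane, was the exception, at 12.8 beside 56.6 (−2.11).

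Tau class glutathione transferases join glutathione to reactive compounds. Of 24 listed, 22 were described, with 9 higher and 4 lower (median 0.84), beside 16.6% and 20.9% of all genes. The share of lower members was thus near that of all genes. GSTU3 was at 292 RPKM in lba1 upf3-1 and 1.86 in upf3-1 (6.95), GSTU11 at 55.4 beside 1.22 (5.02) and GSTU9 at 215 beside 13.4 (3.95). GSTU18 was at 1.71 beside 30.7 (−3.82) and GSTU20, an abundant form, at 27.0 beside 251 (−3.20).

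Senescence is the programmed decline of leaves. Of 16 genes listed, 14 were described, 7 of them higher and 1 lower, with a median of 1.04. Over all 16 without the filter the median was 0.70. SAG13, an early senescence marker, was at 1106 RPKM in lba1 upf3-1 and 24.1 in upf3-1 (5.49). The transcription factor genes NAC019 (71.4 beside 4.42 RPKM, 3.87) and NAC6, known as ORE1 (82.9 beside 12.1, 2.73), were higher. The core enzymes of chlorophyll breakdown PPH (0.24), ACD1 (0.20) and NYC1 (0.43) differed little, and CLH1, a chlorophyllase, was at 0.863 beside 47.9 (−5.15). With columns scaled to equal medians the median was 0.96.

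Low-sugar and dark-inducible genes respond to carbon shortage. Of 12 listed, 10 were described, with 5 higher and 0 lower and a median of 1.07, or 0.99 with columns scaled to equal medians. DIN2, a beta-glucosidase, was at 339 RPKM beside 4.36 (6.13), ASN1, an asparagine synthetase, at 85.4 beside 7.57 (3.41), and GDH2, a glutamate dehydrogenase, at 1090 beside 122 (3.15). DIN10 (−0.65) and DYL1 (−0.90), also of the list, were below upf3-1 by less than 2-fold.

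Abscisic acid and LEA genes protect cells that dry out. Of 20 listed, 17 were described, with 7 higher and 3 lower and a median of 0.40. Of all genes, 16.6% were higher and 20.9% lower, so the share of lower members was near the background. Those higher included seed-type protective proteins. LEA7 was at 59.2 beside 2.57 RPKM (4.28), LTI65 at 50.0 beside 2.23 (4.21) and LEA4-5 at 38 beside 1.59 (4.20). The cold-regulated gene COR15A was at 1.80 beside 35.8 (−3.98). Seed storage and oleosin genes, which a seedling normally shuts off after germination, were described for 5 of 11 members, all 5 higher. Without the filter 8 of 11 were higher and 0 lower. CRA1, a cruciferin, was at 181 RPKM in lba1 upf3-1 and 11.6 in upf3-1 (3.90), and CRU3 at 95.2 beside 1.64 (5.48). The oil body proteins OLEO1 (41.5 beside 0.742 RPKM) and OLEO2 (44.9 beside 1.11) were higher as well. The part of seed tissue in these values was not tested.

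Abscission genes separate organs from the plant body. Of 8 listed, 5 were described, and 4 of these were higher and 0 lower (median 3.09), beside 16.6% and 20.9% of all genes. Without the filter 5 of 8 were higher and 0 lower (median 1.73). ADPG1, a polygalacturonase that dissolves the wall between separating cells, had the highest difference of all genes described, at 174 RPKM in lba1 upf3-1 and 0.306 in upf3-1 (7.75, counting half-width 0.16). It was at 0.066 in wild type, 0.005 in lba1 and 0 in mock and with cycloheximide. IDA, the peptide hormone that triggers shedding, was at 29.2 beside 1.05 RPKM (4.26), and its receptor HAE at 11.0 beside 9.26 (0.23). SOBIR1, a receptor kinase that also acts in immunity, stood at the threshold with 99.8 beside 49.5 RPKM (1.00). Another locus covers part of its exons.

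**Figure D3:**
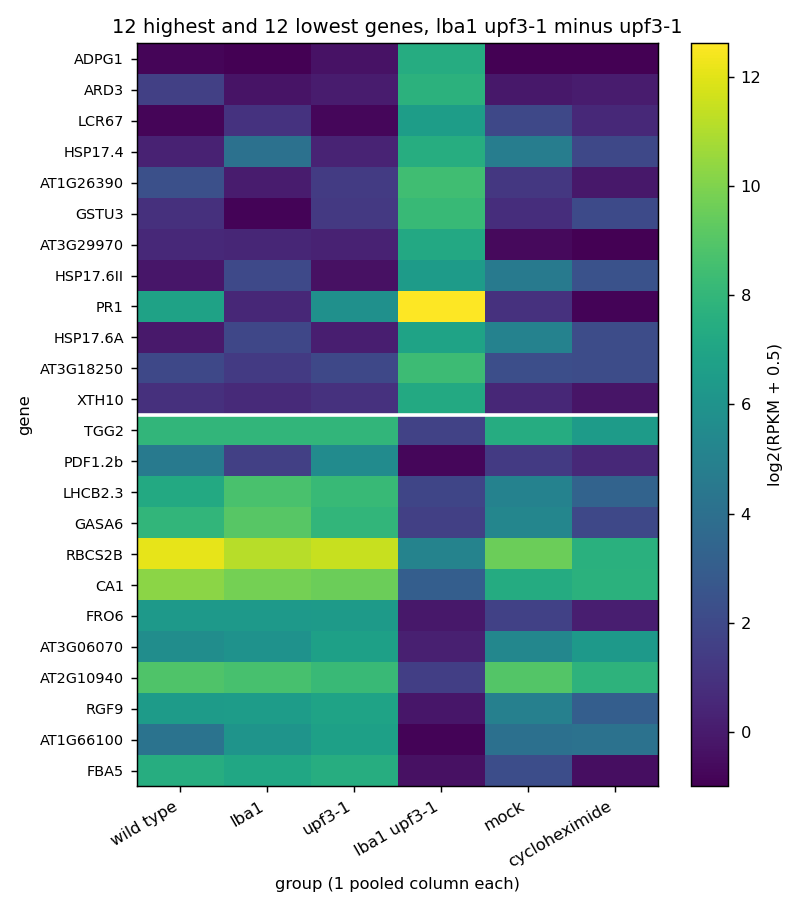
Levels of the 12 highest (above the white line) and 12 lowest genes of lba1 upf3-1 minus upf3-1 in all 6 columns, as log2(RPKM + 0.5) by colour. In the upper block the lba1 upf3-1 column is the brightest for each gene, with PR1 at 6294 RPKM; in the lower block RBCS2B goes from 2880 RPKM in upf3-1 to 33.7 in lba1 upf3-1.

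The remaining genes at both ends of the ranking were on none of the 32 lists. FBA5, a fructose-bisphosphate aldolase, was the lowest, at 179 RPKM in upf3-1 but 0.251 in lba1 upf3-1 (−7.90, counting half-width 0.13). AT1G66100, a thionin, was at 0.053 beside 107 RPKM (−7.61), the former value resting on about 4.7 reads. RGF9, a root meristem growth factor, was at 0.39 beside 117 RPKM (−7.04), and FRO6, a ferric reductase of the shoot, at 0.409 beside 86.2 (−6.58). GASA6, a gibberellin-regulated gene, was at 2.50 beside 247 (−6.37). AT2G10940, of the lipid transfer type, was at 2.42 beside 305 (−6.71), and AT3G06070, of unknown function, at 0.628 beside 108 (−6.59). Among the highest, ARD3, an acireductone dioxygenase of methionine recycling, was at 212 beside 0.511 RPKM (7.72). AT1G26390, a berberine bridge type oxidase, was at 349 beside 2.05 (7.10). AT3G29970, a B12D protein, was at 150 beside 0.732 (6.93), and AT3G18250, a putative membrane lipoprotein, at 317 beside 3.43 (6.34).

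The genes closest to the NMD pathway itself differed little. All 9 NMD and exon junction complex genes were described, with 1 higher, 0 lower and a median of 0.18. The exception was AT1G28260, annotated as telomerase activating protein Est1, at 18.5 beside 6.63 RPKM (1.41). The UPF2 gene AT2G39260 was at 12.2 beside 8.58 RPKM (0.48). Of the exon junction complex, Y14 (0.18) and the disassembly factor PYM (0.19) were slightly above upf3-1, and MAGO (−0.17) and EIF4A-III (−0.07) slightly below it. UPF3 (−0.03) and LBA1 (0.01) were at the same level, and their signs turned with scaling.

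Splicing regulators, among them the SR proteins and the PTB proteins, often produce NMD-sensitive variants of their own mRNAs, and an RPKM value sums all variants of a gene. Of 24 listed, 22 were described, with 10 higher, 0 lower and a median of 0.93, beside 16.6% higher among all genes. SCL33 was at 66.4 RPKM in lba1 upf3-1 and 16.3 in upf3-1 (1.99), while wild type had 11.9, lba1 21.0, mock 19.6 and cycloheximide 5.67. RS2Z32 was at 83.2 beside 21.9 (1.90). PTB1, which limits its own level through NMD, was at 35.1 beside 9.27 (1.87), and PTB2 at 23.9 beside 8.35 (1.46). SCL30A was at 36.8 beside 11.1 (1.68). For each of these genes lba1 upf3-1 was the highest column of the 6. GRP7, a glycine-rich RNA-binding protein, was the lowest of the list, at 224 beside 408 (−0.86). By its median, this group differed less than the salicylic acid defence, small heat shock and photosynthesis groups. Heat shock factors and large chaperones had a lower median (0.79).

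Non-coding and pseudogene transcripts, classes in which aberrant RNAs are frequent, were also described. Of 60 genes annotated as ncRNA, 16 were higher and 5 lower (median 0.42). Of 51 transcribed pseudogenes, 17 were higher and 7 lower (median 0.56). Of 41 other pseudogenes 9 were higher and 4 lower, and of 18 lncRNA genes 2 and 2. Of 10 miRNA genes 1 was higher and 5 lower, and of 21 snoRNA genes 0 and 1. The 13804 protein-coding genes had 2287 higher (16.6%) and 2882 lower (20.9%), the same shares as all genes described. The numbers in the small classes rest on few genes.

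Several groups of basic cell function stayed near upf3-1. None of 28 cytosolic ribosomal protein genes, 15 ribosome biogenesis genes and 18 proteasome subunit genes passed 2-fold in either direction. Their medians were −0.27, 0.12 and 0.40. The lowest ribosomal difference was that of RPL24A (37.4 beside 61.4 RPKM, −0.71) and the highest that of SAC52 (269 beside 195, 0.46). Of the proteasome subunits, AT5G23540, of the lid, was at 71.0 beside 39.1 (0.85) and RPT1A, an ATPase of the base, at 102 beside 59.3 (0.78). Of the 14 clock genes 1 was lower, the morning gene CCA1 (13.9 beside 34.3 RPKM, −1.27). Endoplasmic reticulum stress genes had 2 of 13 described members higher, out of 16 listed, and a median of 0.67. That share of higher members was near the 16.6% of all genes. Without the filter 4 of 16 were higher and 0 lower. The 2 described members that were higher were BZIP60, the transcription factor of that response (86.1 beside 30.4 RPKM, 1.49), and PDIL1-1, a protein disulphide isomerase (1.28). The chaperone genes BIP1 (0.57) and BIP2 (0.67) did not reach 2-fold.

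Flavonoid, iron and early stress genes are read against the 16.6% of all genes that were higher and the 20.9% that were lower. Of 14 flavonoid genes, 8 were described and 2 of these were lower, a share near that background, and without the filter 2 of 14 were lower (median −0.32). The 2 were FLS1 of flavonol synthesis (10.7 beside 40.7 RPKM, −1.88) and TT4, the chalcone synthase (103 beside 217, −1.08). Of 18 iron deficiency genes, 16 were described and 6 were lower and 0 higher (median −0.25). IRT1, the main iron transporter of the root, was at 0.236 beside 7.60 RPKM (−3.46), AT2G30766 at 5.98 beside 34.2 (−2.42) and BHLH101 at 0.964 beside 4.27 (−1.70). Of the 20 early stress transcription factors, 18 were described, 6 being higher and 4 lower. MYB15 was at 55.1 beside 1.68 RPKM (4.68), WRKY29 at 63.3 beside 3.36 (4.05) and RHL41, a zinc finger factor, at 59.8 beside 12.5 (2.21). AT5G51190, an ERF gene wholly under another locus, was at 13.6 beside 55.8 (−2.00).

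The effect of lba1 can also be read where UPF3 is intact, from lba1 against wild type, a comparison that shares no column with lba1 upf3-1 against upf3-1. In wild type, lba1 went with 672 higher genes (4.77%) and 272 lower ones (1.93%), together 944 or 6.71%, beside 5285 or 37.5% in upf3-1. Of these 5285 genes, 4725 (89.4%) were within 2-fold in lba1 against wild type. The difference between both lba1 effects was itself at least 2-fold for 5301 genes (37.7%). Across the 14079 genes the 2 differences had a Pearson r of 0.067 and a Spearman rho of 0.12, as a description over genes that are not independent.

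**Figure D4:**
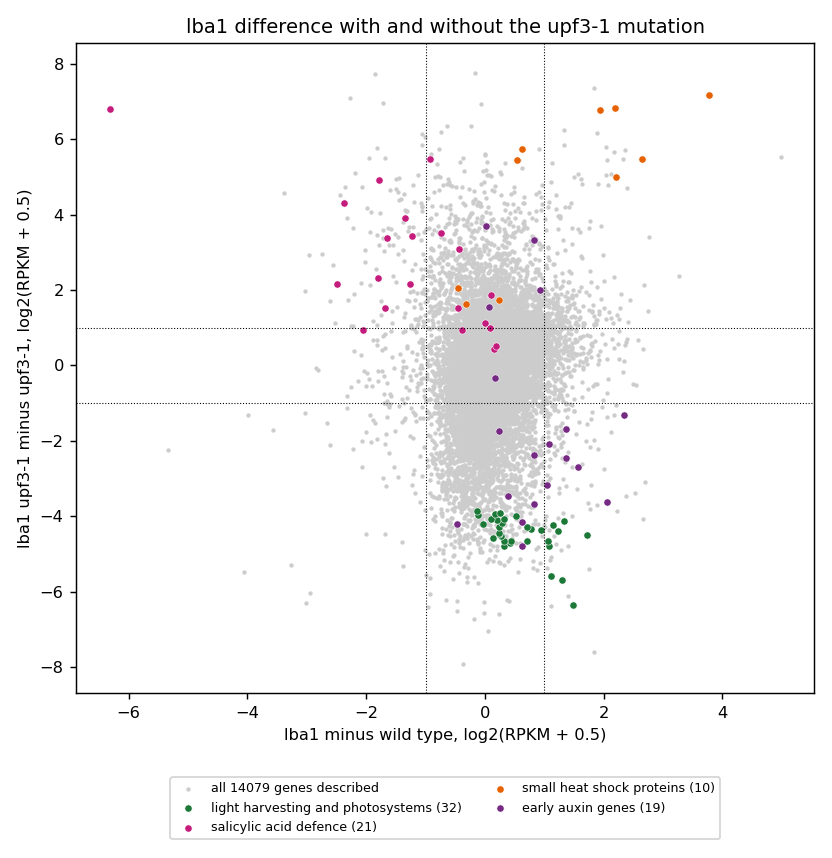
Log2(RPKM + 0.5) difference made by lba1 in wild type (horizontal) and in upf3-1 (vertical) for the 14079 genes described, with 4 lists in colour; dotted lines mark 2-fold. Most salicylic acid defence genes lie to the upper left, with PR1 the farthest out at −6.32 and 6.79, and 4 of the 21 lie right of 0. Light harvesting genes lie at the bottom, at or right of 0 on the horizontal axis for most members.

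Genes higher in both comparisons numbered 246, which is 36.6% of those higher in lba1 and 10.5% of those higher in lba1 upf3-1. Genes lower in both numbered 60, or 22.1% and 2.04%. Those low in lba1 but high in lba1 upf3-1 numbered 129, or 47.4% of the genes lower in lba1 and 5.51% of those higher in lba1 upf3-1. The reverse held for 125, or 18.6% and 4.24%. Of all genes, 16.6% were higher and 20.9% lower in lba1 upf3-1, so the shares of 36.6% and 47.4% lay above the background, while 22.1% was near it and 18.6% slightly below it.

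Salicylic acid defence genes were among those that differed in direction. Their median was −1.22 in lba1 against wild type, with 11 of 21 lower and 0 higher, and 2.17 in lba1 upf3-1 against upf3-1. Besides PR1, ELI3-2, annotated as a cinnamyl alcohol dehydrogenase, was at 0.053 RPKM in lba1 beside 5.25 in wild type, and at 152 in lba1 upf3-1 beside 5.95 in upf3-1. GPT2, the sugar phosphate carrier of stressed plastids, was at 3.16 beside 28.1 and at 99.4 beside 12.7. AT1G57630, of the TIR domain type, was at 0.354 beside 4.15 and at 114 beside 4.50. WAK3, a wall-associated kinase, was at 0.183 beside 3.52 and at 21.8 beside 3.05. For each of these genes upf3-1 was near or below wild type and lba1 upf3-1 well above both.

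The opposite turn held for auxin and light harvesting genes. Early auxin genes had a median of 0.82 in lba1 against wild type, with 7 of 19 higher and 0 lower, beside −2.38 in lba1 upf3-1 against upf3-1. SHY2, the repressor IAA3, was at 80.1 RPKM in lba1 beside 18.9 in wild type, and at 4.53 in lba1 upf3-1 beside 61.4 in upf3-1. Another locus covers 39.6% of its exon bases. AT2G37030, a SAUR-type gene, was at 16 beside 2.04, and at 0 beside 3.77, which is at least 76.7-fold lower by a floor of 3 reads. ADS1, a fatty acid desaturase, was at 34.0 beside 6.15 and at 0.291 beside 8.20. Light harvesting and photosystem genes had a median of 0.37 in lba1 against wild type, with 9 of 32 higher and 0 lower, and −4.38 in lba1 upf3-1 against upf3-1. The Calvin cycle genes did not turn, since all 16 were below wild type in lba1 as well, with a median of −0.48 and 0 past 2-fold.

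Other genes kept 1 direction in both. AT1G68250, of unknown function, was at 21.0 RPKM in lba1 beside 0.178 in wild type, and at 50.4 in lba1 upf3-1 beside 0.606 in upf3-1. Small heat shock genes had 5 of 10 higher in lba1 against wild type (median 1.28) and 10 of 10 in lba1 upf3-1 against upf3-1. Seed storage genes had medians of 2.13 and 4.82, with CRU3 at 27.1 beside 4.99 and at 95.2 beside 1.64. ASN1 was at 51.7 beside 7.21 and at 85.4 beside 7.57. On the lower side, the beta-amylase gene BAM5, after which the lba1 mutant is named, was at 0.983 RPKM in lba1 beside 59.2 in wild type. In lba1 upf3-1 it was at 32.1 beside 153 in upf3-1, so it was lower in both backgrounds, but by −5.33 in wild type and by −2.23 in upf3-1.

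**Figure D5:**
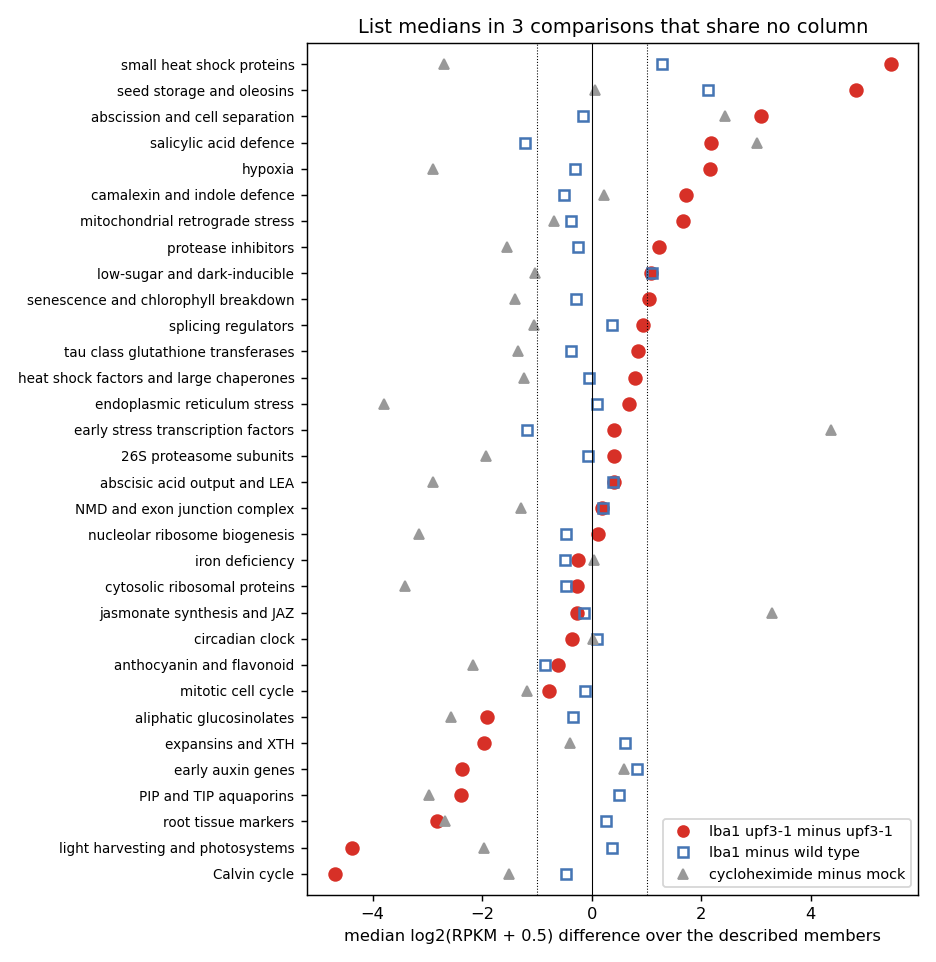
Median log2(RPKM + 0.5) difference of the described members of 32 lists in lba1 upf3-1 minus upf3-1 (red circles), lba1 minus wild type (open blue squares) and cycloheximide minus mock (grey triangles), 3 comparisons with no column in common. Dotted lines mark 2-fold. Salicylic acid defence stands at 2.17 and −1.22 for the first 2, and light harvesting and photosystems at −4.38 and 0.37. The medians of all genes described are 0.11, 0.08 and −0.81 in the same order of comparisons.

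Because NMD needs translation, a block by cycloheximide stops it too. The cycloheximide comparison with mock also shares no column with lba1 upf3-1 against upf3-1. It had 1870 higher genes (13.3%) and 6209 lower ones (44.1%). Genes higher in both numbered 588, or 31.4% of those higher with cycloheximide and 25.1% of those higher in lba1 upf3-1. Genes lower in both numbered 1503, or 24.2% and 51.04%. A further 833 were lower with cycloheximide and higher in lba1 upf3-1, and 326 the reverse. Of the genes lower in lba1 upf3-1, the 51.04% that were lower with cycloheximide stand beside 44.1% of all genes. Of the genes lower with cycloheximide, the 24.2% that were lower in lba1 upf3-1 were near the 20.9% of all genes. The shares of the higher genes, 25.1% and 31.4%, stand beside 13.3% and 16.6%. Across genes the differences had a Pearson r of 0.15 and a Spearman rho of 0.13.

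Named genes higher in both included WRKY38, at 52.2 RPKM with cycloheximide beside 0.344 in mock, and BAP2, a BON association protein, at 254 beside 2.1. BAP2 was at 47.4 in lba1 upf3-1 beside 1.07 in upf3-1. Salicylic acid defence genes as a group had a median of 3.01 with cycloheximide, whereas PR1 itself was at 0.047 RPKM there and 1.4 in mock. The small heat shock genes, at the top in lba1 upf3-1, had a median of −2.70 with cycloheximide, beside −0.81 for all genes described. Splicing regulators had a median of −1.05 there, with 1 of 22 higher and 13 lower. Among the genes lower in both, GER3, a germin, was at 3.33 beside 140 RPKM with cycloheximide and at 6.59 beside 281 in lba1 upf3-1, and GAMMA-TIP at 2.54 beside 252 and at 12.6 beside 246.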

How the data were processed

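RNA was sequenced from 12 libraries of whole seedlings, 2 per group in 6 groups. An Illumina TruSeq kit was used on total RNA, per the labels' protocols. The authors deposited gene levels as RPKM, 1 pooled column per group, for 33602 loci. Per the submitters' processing notes, the genome build is TAIR 10. Neither the aligner nor the counting and pooling steps are given in those sources.

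Names, gene classes, lengths and overlaps came from the TAIR10.1 RefSeq annotation, which held 32835 of the loci and lacked 767. Depth was recovered from low values at 623 transfer RNA loci, in steps of up to 8 reads, of which 94.2% to 97.4% were whole within 0.05 of a read. It came to 83.1 to 91.7 M reads per column. Intervals and floors of 3 reads cover counting error only, as sequencing reads without molecular identifiers are not independent molecules. A total of 3987 loci were at 0 in all columns.

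Differences of log2(RPKM + 0.5) were computed over 14079 genes whose mean over 6 columns reached 5 RPKM, and checked on simulated data. Below that mean lay 19523 loci, of which 1468 were higher and 1526 lower by the 2-fold rule. A planned limma fit needed 1 column per library and was not run. The 32 lists hold 555 entries, of which 470 are described. The members and lists were chosen with earlier results of these data known. Genes named were the 12 highest and 12 lowest, all NMD genes, up to 4 members of each list past 2-fold (2 where none was), and those leading the cross comparisons (6 each way for lba1, 4 for cycloheximide). Other list members, some at the ends or near the threshold of their lists, were named after their values were seen, as were the gene classes. Some genes were left out for length, and 1 NMD gene is not reported here. Alternatives were pseudocounts of 0.1 and 1, mean minimums of 1 and 10 RPKM or none, median scaling and quantile normalization. Added after the data were seen were a filter on the compared columns alone and the removal of genes with over 20% of exon bases under another locus. Tools were python 3.11.15, pandas 2.3.3, numpy 2.4.6, scipy 1.17.1 and matplotlib 3.10.9.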

Additional observations from a re-analysis of the deposited data

Results flagged for a closer look

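The results here had lba1 move a gene or list one way in wild type and the other way in upf3-1. The difference between both effects is given on the log2 scale as the lba1 effect in upf3-1 minus that in wild type, and it was not tested, since each group has 1 column. Lower in lba1 and higher in lba1 upf3-1 were PR1 (13.10), ELI3-2 (7.94), AT1G57630 (6.97), GPT2 (5.89), AT4G12490 (5.69), a lipid transfer type gene that partly overlaps another locus, and WAK3 (5.21). Higher in lba1 and lower in lba1 upf3-1 were AT5G62280, a DUF1442 protein gene (−6.72), AT5G03120 (−6.08), AT1G15825, largely under another locus (−5.91), ADS1 (−5.83), AT2G37030 (−5.79) and SHY2 (−5.68). For salicylic acid defence the list medians differed by 3.39.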

How the results depend on the processing

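No paired analysis was possible because each group is 1 pooled column that carries no replicate number, and for the same reason no replicate could be left out. Without a filter on low values, 3808 genes were higher and 4471 lower. With a mean minimum of 10 RPKM, 193 genes past 2-fold kept 1 direction in both lba1 comparisons, against 306. Without a filter the shares were 11.3% higher and 13.3% lower of 33602 loci, beside 16.6% and 20.9% of the 14079 genes. At 10 RPKM, 9394 genes were examined. Under median scaling, which lowered the median difference of all genes by 0.076, the medians of the senescence list (0.96) and the low-sugar list (0.99) dropped below 1. LBA1 changed sign to −0.0726 under median scaling and −0.0617 under quantile normalization, and UPF3 to 0.26 under quantile normalization. SOBIR1 was at 0.92 under median scaling. The other 42 counts of genes stayed within 1.5 times, and 126 list medians and 630 gene values kept direction and side of the rule. The share of higher genes among those past 2-fold was 44.3%. Over the alternatives it ran from 40.5% under median scaling to 49.9% with the filter on the compared columns alone. The cause of these shifts was not tested. Depth limits genes of few reads, such as LCR67 and SAUR20.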

Other observations

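Gene families defined by their annotated names, and chosen after the data were seen, gave further values for lba1 upf3-1 against upf3-1. They are read against the 16.6% of all genes that were higher and the 20.9% that were lower. WRKY transcription factors, many of them regulators of immunity, had 20 of 35 described members higher and 0 lower (median 1.14). WRKY75 was at 117 RPKM beside 4.23 in upf3-1 and WRKY51 at 28.9 beside 1.06, whereas WRKY3 was at 9.79 beside 15.1. NAC transcription factors had 18 of 32 higher and 0 lower (median 1.17), and NAC042 was at 40.1 beside 1.13. Outside lba1 upf3-1, NAC042 lay between 0.619 and 2.33 RPKM, so it passed the filter only through that column. Enzymes of the berberine bridge family had 11 of 16 higher and 2 lower, with AT1G30700 at 463 beside 8.22.

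Other families were divided or leaned lower. Class III peroxidases, which crosslink or loosen walls, had 16 of 41 higher and 15 lower. PRX52 was at 146 RPKM beside 1.49, and AT4G26010 at 0.294 beside 16.7. Lipid transfer proteins had 30 of 52 lower and 11 higher, GDSL lipases 17 of 33 lower and 2 higher, and tubulins 8 of 13 lower and 0 higher, with TUB5 at 3.73 beside 55.9 RPKM. Pentatricopeptide repeat proteins, which process organelle RNAs, had 25 of 81 lower and 3 higher. NLR immune receptors had 14 of 75 higher, a share near that of all genes, and 5 lower.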
